A study of Mus musculus with 8 samples.

Results

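The genes of the C/EBP family were examined by the accessible chromatin that surrounds them in alveolar macrophages (AMs), the resident macrophages of the airspaces. The 5 genes were Cebpa, Cebpb, Cebpd, Cebpe and Cebpg. Every peak that overlapped one of these genes or the 50 kb on either side of it was taken, and peaks of different libraries that shared at least 1 base were merged. This gave 84 distinct regions of the 82424 in the series, of which 8 lay in the windows of both Cebpa and Cebpg, which are neighbours on chromosome 7.

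Mature AMs had been sorted from the bronchoalveolar lavage of adult mice, as CD11b- SiglecF+ cells in the study's terms, and profiled by ATAC-seq, which uses a transposase to insert sequencing adapters into open DNA. Mice of both groups carried loxP-flanked alleles of Rxra and Rxrb (Rxrab fl/fl). The KO group also carried CD11cCre, a Cre recombinase driven by the promoter of Itgax, the gene for CD11c, which is active in AMs and in other CD11c+ cells. The WT group was Rxrab fl/fl without Cre. There were 4 libraries of each genotype, KO replicates 1_2, 1_3, 2 and 3 and WT replicates 1_2, 1_3, 3 and 4. The labels do not say if replicates 1_2 and 1_3 came from different animals, and p-values measure the spread between libraries, part of which may be technical. A region of Rxra (chr2:27744546-27744950) had a peak in each WT library, with 38, 46, 38 and 42 tags, and in 0 KO libraries.

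C/EBP proteins are basic leucine zipper transcription factors that bind DNA as dimers, with themselves, with each other or with other leucine zipper proteins. C/EBPα sets up the myeloid fate in bone marrow progenitors, C/EBPβ is needed for normal AM numbers and for inflammatory gene expression, and C/EBPδ is induced in inflammation. C/EBPε acts late in granulocyte development, and C/EBPγ lacks an activation domain and can hold its partners in inactive dimers. RXRα and RXRβ, whose genes were deleted in the KO, are nuclear receptors that bind DNA with partners such as PPARγ, often at 2 AGGTCA half-sites spaced by 1 base, a layout called DR1.

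The sequences of 6 regions show the elements that the comparisons turn on. The first 4 had a difference between genotypes that passed the test. The other 2 were among the 3 distal regions of highest mean tags in the windows of Cebpa and Cebpe (percentiles 76.9 and 71.0 by level). No link between a region and the gene it is named by was tested. Each is the 201 bases around the summit of the strongest peak, in mm10 and read 5′ to 3′, with positions given from the start site of the named gene. Capitals mark a match to C/EBP (TTGCNNAA), PU.1 (AGGAAGT), AP-1 (TGANTCA), RUNX (TGTGGTT) or DR1 with at most 2 mismatches, on either strand. Bases that 2 overlapping matches share are marked once.
Cebpb at +35.11 kb, chr2:167723924-167724124, plus strand: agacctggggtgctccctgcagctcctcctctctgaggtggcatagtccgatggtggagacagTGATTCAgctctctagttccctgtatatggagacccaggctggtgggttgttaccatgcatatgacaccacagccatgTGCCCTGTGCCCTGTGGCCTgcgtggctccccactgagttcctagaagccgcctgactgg
Cebpb at +41.55 kb, chr2:167730367-167730567, plus strand: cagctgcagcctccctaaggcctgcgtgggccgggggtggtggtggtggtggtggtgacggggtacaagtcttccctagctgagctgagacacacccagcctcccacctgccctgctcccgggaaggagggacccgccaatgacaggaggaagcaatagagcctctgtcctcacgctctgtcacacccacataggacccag
Cebpa at -11.26 kb, chr7:35107933-35108133, plus strand: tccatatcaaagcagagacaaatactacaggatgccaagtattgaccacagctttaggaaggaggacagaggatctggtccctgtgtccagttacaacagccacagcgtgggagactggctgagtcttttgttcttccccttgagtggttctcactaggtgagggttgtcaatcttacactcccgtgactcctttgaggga
Cebpg at -10.26 kb, chr7:35066738-35066938, plus strand: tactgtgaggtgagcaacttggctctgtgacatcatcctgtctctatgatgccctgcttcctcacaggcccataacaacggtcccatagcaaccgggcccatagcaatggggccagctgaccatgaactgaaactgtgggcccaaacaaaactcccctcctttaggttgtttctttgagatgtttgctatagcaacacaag
Cebpa at +37.34 kb, chr7:35156530-35156730, plus strand: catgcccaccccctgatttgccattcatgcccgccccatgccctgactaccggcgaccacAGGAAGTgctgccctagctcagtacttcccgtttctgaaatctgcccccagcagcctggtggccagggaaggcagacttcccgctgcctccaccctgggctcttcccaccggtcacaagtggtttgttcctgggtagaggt
Cebpe at -42.6 kb, chr14:54754675-54754875, plus strand: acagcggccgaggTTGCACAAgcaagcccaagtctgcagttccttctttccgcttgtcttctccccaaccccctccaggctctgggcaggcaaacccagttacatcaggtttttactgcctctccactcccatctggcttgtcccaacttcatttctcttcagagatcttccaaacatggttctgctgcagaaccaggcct

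In the Cebpb element at +35.11 kb the capitals mark 1 AP-1 match and 2 overlapping DR1 matches. Each DR1 match has 2 mismatches, the most that the search allowed. It was the only one of the 84 regions with a DR1 match. The Cebpa element at +37.34 kb, which lies at the distance of the well known myeloid enhancer of Cebpa, holds 1 PU.1 match, and the Cebpe element at -42.6 kb holds 1 C/EBP match. The elements at +41.55 kb of Cebpb, -11.26 kb of Cebpa and -10.26 kb of Cebpg held none of these letters, which says nothing of whether the factors bind there.

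The number of regions set Cebpa and Cebpb apart from Cebpd and Cebpe. The window of Cebpa (gene body chr7:35119293-35121928, plus strand) held 27 regions, that of Cebpb (chr2:167688915-167690418, plus) 25 and that of Cebpg (chr7:35046422-35056573, minus) 22. The window of Cebpe (chr14:54710360-54712174, minus) held 10 and that of Cebpd (chr16:15887286-15891031, plus) 8. Per 100 kb this was 26.3 regions for Cebpa, 24.6 for Cebpb, 19.97 for Cebpg, 9.82 for Cebpe and 7.71 for Cebpd, against a median of 5.72 over 21728 protein-coding genes with the same flanks. Cebpa and Cebpb were at percentile 99.9 of those genes and Cebpg at 98.8, while Cebpe was at 75.0 and Cebpd at 63.0. Accessible sequence made up 11.6% of the window of Cebpa, 11.4% of that of Cebpb and 3.35% of that of Cebpd.

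**Figure D1:**
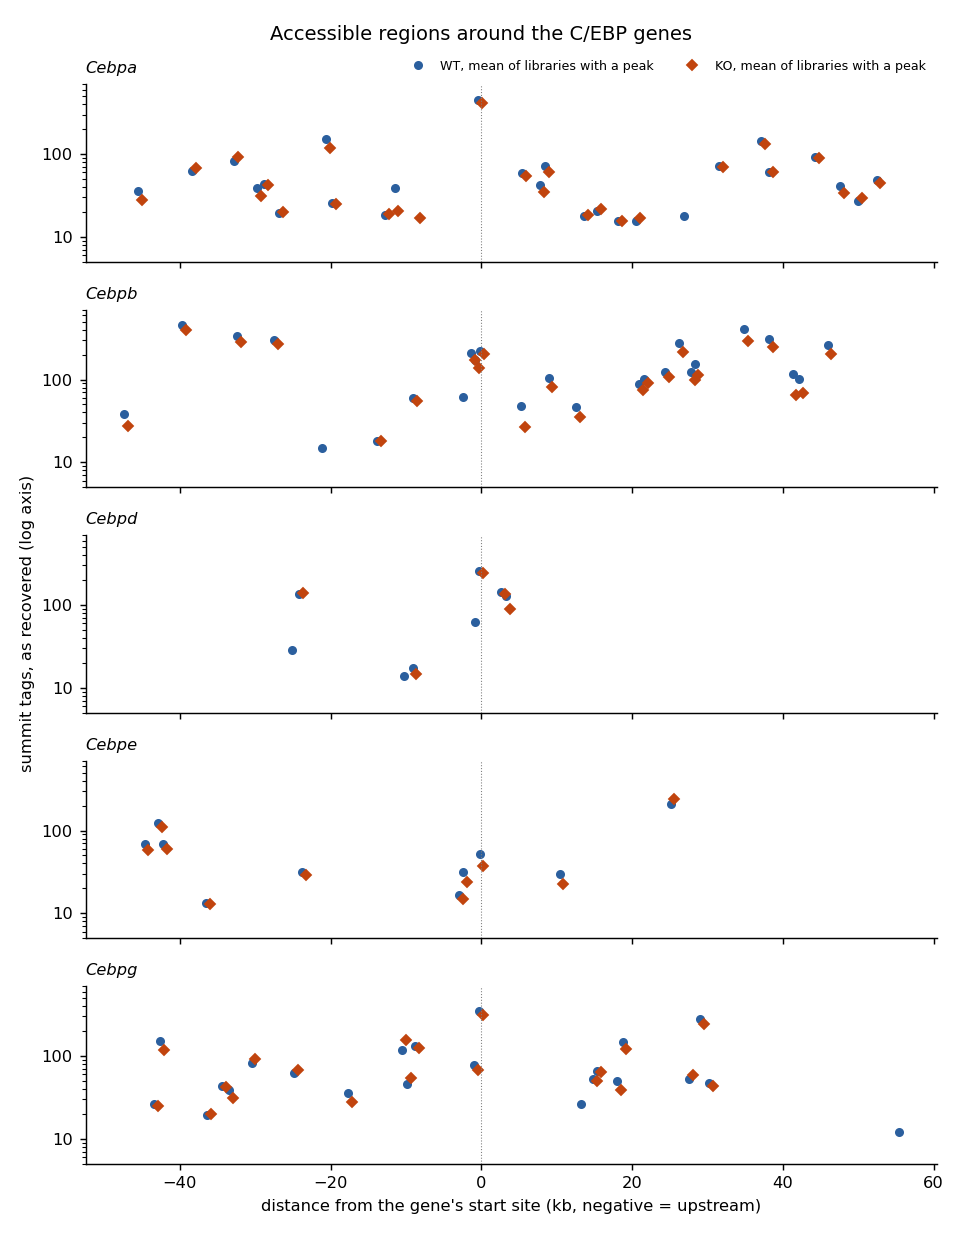
Summit tags of every region by its distance from the start site of the gene (kb, negative is upstream), on a log axis, with 1 panel a gene. Circles (WT) and diamonds (KO) are means over the libraries of that genotype with a peak; the regions of Cebpa and Cebpb are spread over both flanks, and those of Cebpd and Cebpe are few.

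Of the 84 regions, 60 had a peak in all 8 libraries (71.4%, against 57.6% of all regions), 19 in 2 to 7 libraries and 5 in 1 library. Most were distal: 69 regions had their summit more than 1 kb from the start site of every coding or long noncoding transcript. The number of regions with a peak changed little between libraries. It ran from 22 to 24 in KO and from 23 to 24 in WT for Cebpa, from 21 to 22 in KO and from 23 to 25 in WT for Cebpb, and was 18 in each KO library and 18 to 20 in WT for Cebpg. For Cebpd it was 5 in each KO library and 4 to 8 in WT, and for Cebpe 8 to 9 in KO and 8 to 10 in WT. WT replicate 1_3, the library with the most peaks (72484, against 60363 to 66174 in the others), held 3 of the 5 regions found in 1 library.

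Accessibility at a region was measured by its summit tags, the number of extended read ends over the highest point of the peak, worked back from the fold enrichment and p-value in the peak lists. Libraries differed in depth (1.12 to 1.86 background tags per 200 bp in KO, 1.42 to 2.26 in WT), so tags were centred on each library's median for comparisons, and these values are called median-centred tags. At the promoter of each of the 5 genes there was a peak in every library. The promoter of Cebpa (chr7:35118819-35119706) was the most accessible of the 5, with 441, 429, 403 and 398 tags in the KO libraries and 399, 532, 477 and 401 in the WT libraries, each in the order of replicates given above and kept from here on. It was at percentile 96.1 of the 11661 coding genes with a promoter peak in all 8 libraries. The promoter of Cebpg (chr7:35055841-35056899) had 328, 330, 283 and 298 tags in KO and 364, 409, 316 and 297 tags in WT, at percentile 90.1.

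The promoters of the inflammatory members came next. That of Cebpd (chr16:15886924-15887641) had 249, 260, 261 and 210 tags in KO and 263, 302, 256 and 223 tags in WT (percentile 80.4). That of Cebpb (chr2:167688576-167689401), whose summit lies in the only exon of the gene, had 216, 198, 228 and 163 tags in KO and 214, 211, 231 and 220 tags in WT (percentile 71.9). The promoter of the granulocyte gene Cebpe (chr14:54711944-54712346) stood well below them, with 33, 36, 43 and 37 tags in KO and 57, 56, 52 and 42 tags in WT (percentile 11.9). In median-centred tags the means were 434 ± 29.2 (SD, n = 8) at Cebpa, 327 ± 22.1 at Cebpg, 252 ± 20.6 at Cebpd, 211 ± 31.3 at Cebpb and 44.2 ± 7.13 at Cebpe. Cebpa was above Cebpg, Cebpg above Cebpd, Cebpd above Cebpb and Cebpb above Cebpe in 8 of 8 libraries. The step from Cebpd to Cebpb was the smallest, 1.01-fold to 1.43-fold across libraries, and that from Cebpb to Cebpe the largest of these, 3.73-fold to 6.46-fold.

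**Figure D2:**
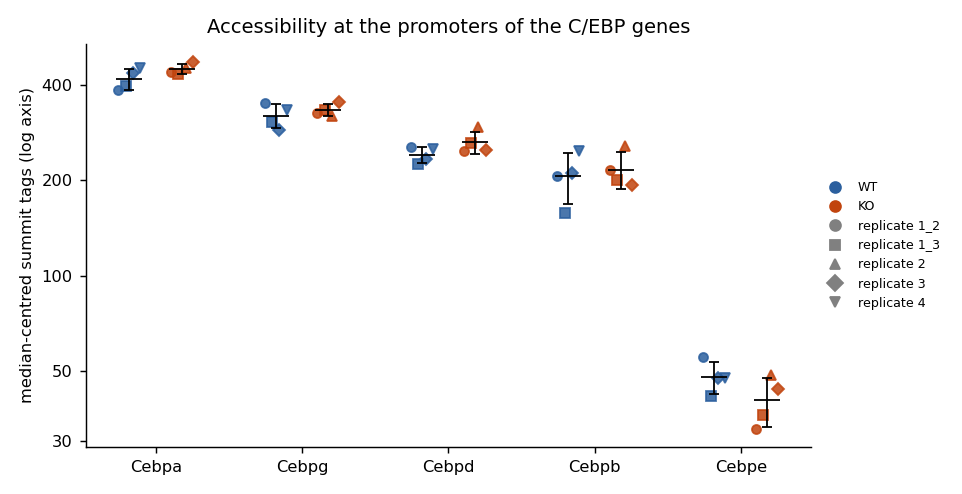
Median-centred summit tags (log axis) at the promoter of each C/EBP gene, with 1 point a library (blue WT, orange KO, marker by replicate) and bars for the mean ± SD of 4 libraries. WT and KO points overlap at each of the 5 promoters, and Cebpe lies well below the others.

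Deletion of Rxra and Rxrb went with no difference that passed the test at any of the 5 promoters. By limma across the 47499 regions found in every library, with Benjamini-Hochberg adjustment over all of them, 0 of 5 promoters passed, and 0 of 5 had an unadjusted p under 0.05. For Cebpa, KO minus WT was 0.11 on the log2 scale (95% interval -0.04 to 0.26, adjusted p = 0.367). The difference was 0.08 for Cebpb (interval -0.12 to 0.29, adjusted p = 0.657), 0.13 for Cebpd (interval -0.04 to 0.29, adjusted p = 0.348) and 0.06 for Cebpg (interval -0.10 to 0.22, adjusted p = 0.676). The intervals of these 4 genes reached no further than 0.29 in either direction. For Cebpe the difference was -0.25 with a wider interval, -0.58 to 0.08 (adjusted p = 0.338), and the median-centred tags of the genotypes overlapped there too (32.9 to 48.5 in KO, 41.6 to 55.1 in WT).

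Around the promoters, 7 of the 60 regions found in every library passed the test (11.7%), beside 12.8% of all regions, a like share. In these bulk samples, fewer cells with an open region and less opening per cell cannot be told apart. Median-centred tags of the genotypes did not overlap in 6 of the 60 regions, beside 16.2% of all regions. Of the 7 that passed, 4 were lower in KO (7.03% of all regions were) and 3 were higher (5.81% of all regions were). The median difference was 0.02 over the 60 regions and 0.04 over all regions. The scaling bore on these counts. With libraries scaled by their genome-wide background 2 of the 60 passed, 1 in each direction (3.33%, beside 5.40% of all regions). With centring on promoter regions 6 were lower and 2 higher (together 13.3%, beside 13.6% of all regions). Over all regions the share of calls that were higher in KO was 45.3% with median centring, 39.5% with quantile normalisation, 22.4% with background scaling and 20.1% with promoter centring. When KO replicate 1_2, KO replicate 3 or WT replicate 3 was left out alone, 4 regions passed each time. Calls over all 47499 regions fell as well, from 6096 to 4922, 4669 and 4561 in that order. Only 2 regions, at +41.55 kb of Cebpb and at -10.26 kb of Cebpg, passed under each of the 18 alternatives tried.

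**Figure D3:**
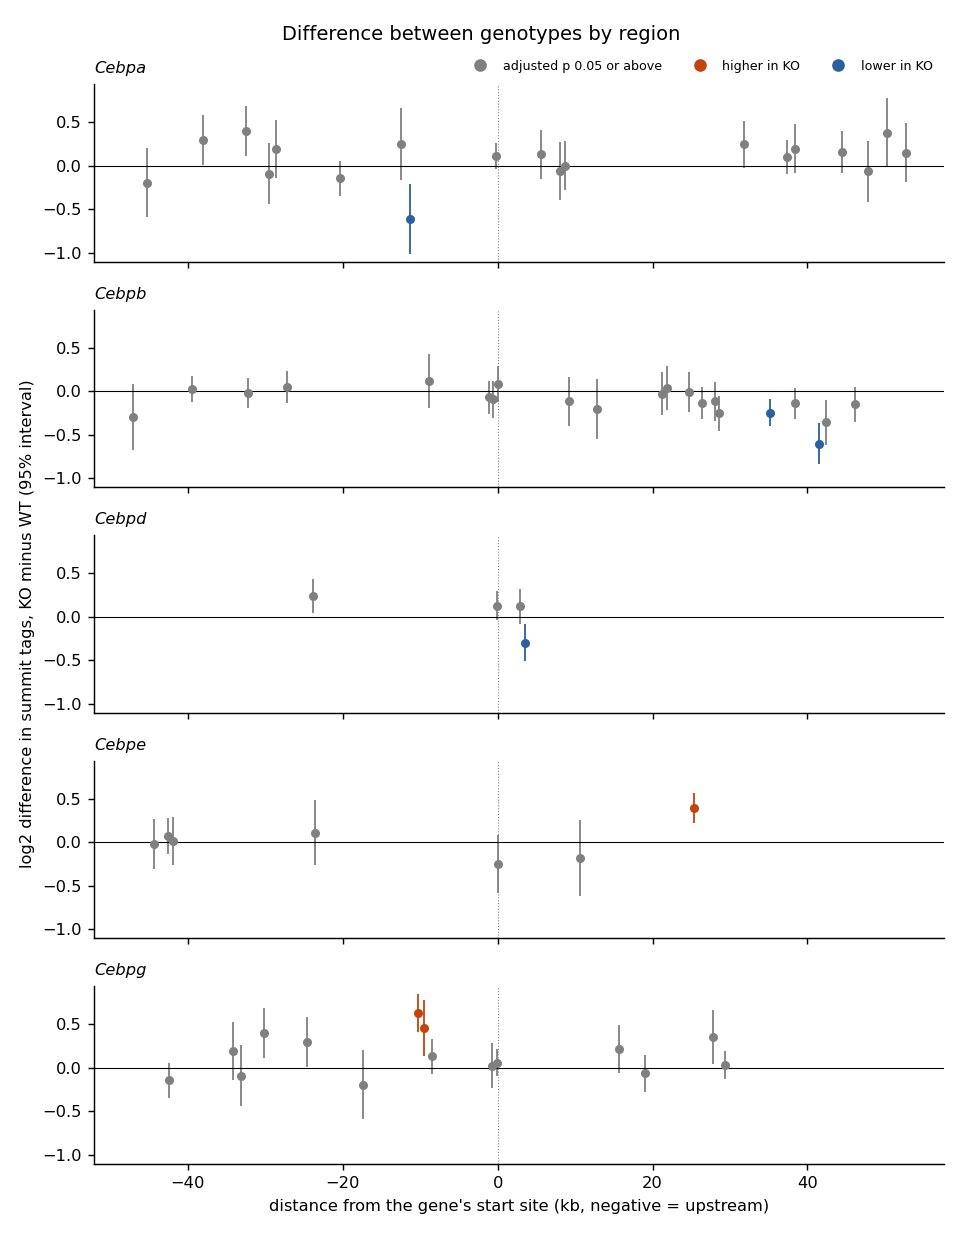
Difference in median-centred summit tags, KO minus WT on the log2 scale, for each region found in every library, by distance from the start site (kb), with 1 panel a gene and bars for the 95% interval. Blue points are lower in KO and orange points higher at an adjusted p under 0.05; downstream of Cebpb 12 of 13 points lie below 0, and the 2 regions higher in KO near Cebpg lie next to each other.

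Among the lower regions the smallest adjusted p belonged to an element downstream of Cebpb. The region at +41.55 kb (chr2:167730313-167730641, between genes) had 67, 65, 67 and 62 tags in KO and 100, 141, 119 and 105 in WT. No KO library reached the lowest WT library. In median-centred tags the KO mean was 70.4 ± 4.94 and the WT mean 107 ± 9.01 (SD, n = 4 each), 1.52-fold higher in WT (log2 difference -0.60, SE 0.12, adjusted p = 0.000225). The region at +35.11 kb (chr2:167723626-167724281), in an intron of the long noncoding gene A530013C23Rik, was among the most accessible of the family, with 321, 328, 273 and 254 tags in KO and 376, 471, 395 and 374 in WT. This is the element with the DR1 and AP-1 matches printed above. Its genotypes did not overlap either, but the difference was small (log2 difference -0.25, SE 0.08, adjusted p = 0.0275), and the call was lost under 7 of the 18 alternatives, with background scaling at adjusted p = 0.358.

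Other regions downstream of Cebpb leaned the same way. Of the 13 regions tested 3′ of the gene, 12 had fewer median-centred tags in KO, with a median difference of -0.14, beside 42.4% of all regions and a median of 0.04. With background scaling and with promoter centring it was 13 of 13, and with quantile normalisation 12. This stretch was singled out after its values were seen, the regions share their libraries, and 2 passed the test with median centring (beside 12.8% of all regions). With background scaling 1 passed (beside 5.40%), with quantile normalisation 2 (beside 12.6%) and with promoter centring 4 (beside 13.6%). At the neighbouring region, +42.43 kb, there were 83, 65, 61 and 65 tags in KO and 96, 109, 94 and 107 in WT (log2 difference -0.36, adjusted p = 0.0538). On the 5′ side and at the promoter, 4 of 8 regions were below 0 with median centring. It was 6 of 8 with background scaling, 6 with quantile normalisation and 7 with promoter centring. Of all regions, 52.4%, 45.8% and 59.3% were below 0 under these scalings, in that order. The most accessible region of the Cebpb window, at -39.48 kb in the Tmem189 gene, had 458, 395, 349 and 377 tags in KO and 417, 535, 462 and 393 in WT. Its difference was 0.02 (interval -0.13 to 0.17, adjusted p = 0.888). The region at -32.18 kb had 290, 304, 308 and 243 tags in KO and 337, 357, 327 and 320 in WT, and after centring the difference was -0.02 (interval -0.19 to 0.15, adjusted p = 0.917).

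**Figure D4:**
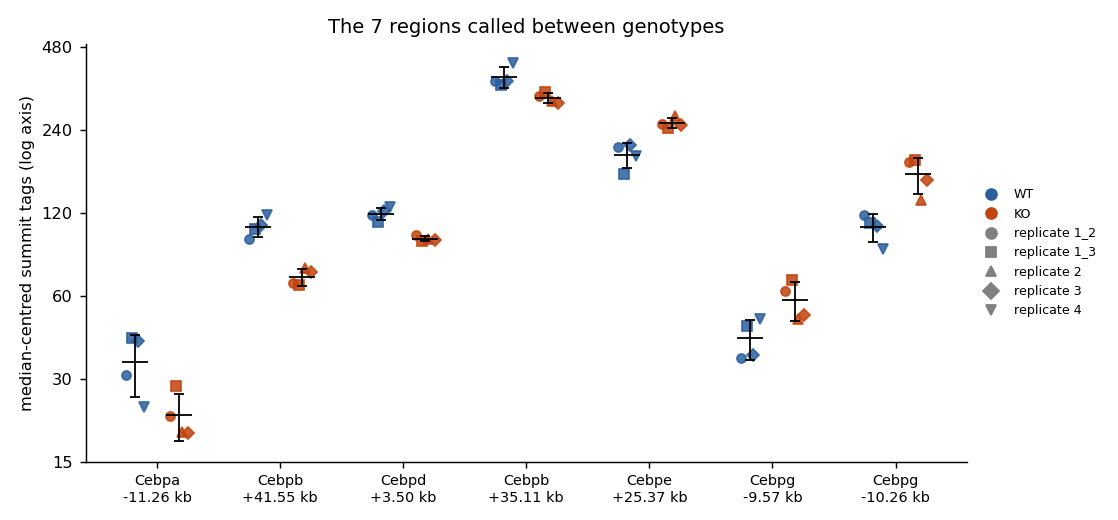
Median-centred summit tags (log axis) at the 7 regions that passed the test, with 1 point a library (blue WT, orange KO, marker by replicate) and bars for the mean ± SD of 4 libraries. The genotypes do not overlap at 5 of the 7 regions, which the test had picked, and overlap at -11.26 kb of Cebpa and at -9.57 kb of Cebpg. Of the 60 tested regions 6 did not overlap, beside 16.2% of all regions.

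At Cebpa, 1 of the 19 tested regions passed (beside 12.8% of all regions). It lay at -11.26 kb (chr7:35107537-35108235, between genes) and was weak, with 22, 28, 17 and 16 tags in KO and 32, 57, 45 and 21 in WT. WT replicate 4 fell within the KO range. The log2 difference was -0.61 (SE 0.20, adjusted p = 0.0331), and the call was lost under 7 of the 18 alternatives, among them leaving out WT replicate 1_3. The strong elements of the gene gave no call. The element at +37.34 kb (chr7:35156408-35156923) had 140, 160, 123 and 111 tags in KO and 129, 173, 155 and 121 in WT, a difference of 0.10 (interval -0.10 to 0.30, adjusted p = 0.55). The element at -20.33 kb, which is also in the Cebpg window, had 119, 127, 125 and 101 tags in KO and 136, 185, 160 and 129 in WT. In tags as recovered its genotypes did not overlap, and after centring they did, with a difference of -0.15 (interval -0.34 to 0.05, adjusted p = 0.356). At +44.5 kb there were 85, 95, 83 and 92 tags in KO and 73, 111, 98 and 90 in WT (difference 0.16, adjusted p = 0.42).

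The largest increase lay upstream of Cebpg, at the start of the long noncoding gene Gm45096. The region at -10.26 kb (chr7:35066612-35067078) had 185, 185, 119 and 133 tags in KO and 122, 149, 118 and 79 in WT. KO replicates 1_2 and 1_3 were the highest. After centring, each KO library (134 to 187 median-centred tags) was above each WT library (89.1 to 118), and the region was 1.55-fold higher in KO (log2 difference 0.63, SE 0.11, adjusted p = 3.35e-05). The neighbouring region at -9.57 kb, inside Gm45096, had 63, 68, 44 and 43 tags in KO and 37, 63, 40 and 44 in WT. Its median-centred tags overlapped between genotypes (log2 difference 0.46, SE 0.16, adjusted p = 0.0479), and the call was lost under 9 of the 18 alternatives, including the one that counted KO replicates 1_2 and 1_3 as 1 sample (adjusted p = 0.135). Neither region was at the promoter of Cebpg itself. Of the 3 most accessible distal regions in the window of Cebpg, 1 was the region shared with Cebpa at -20.33 kb of that gene, and the other two lay in the neighbouring gene Pepd. At +29.32 kb there were 273, 245, 220 and 239 tags in KO and 261, 355, 285 and 219 in WT (difference 0.03, interval -0.13 to 0.20, adjusted p = 0.829), and at +18.99 kb 133, 119, 116 and 117 in KO and 169, 142, 148 and 131 in WT (difference -0.06, adjusted p = 0.752).

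At Cebpd, 1 of 4 tested regions passed, beside 12.8% of all regions. It lay at +3.5 kb (chr16:15890580-15890955) near the 3′ end of the Cebpd exon, where the annotation also places the gene Spidr. It had 100, 94, 86 and 81 tags in KO and 122, 150, 133 and 112 in WT. The genotypes did not overlap (log2 difference -0.30, SE 0.10, adjusted p = 0.0493), but the call was just under the threshold and was lost under 13 of the 18 alternatives. The region beside it, at +2.84 kb in the same exon, had 163, 137, 135 and 107 tags in KO and 146, 170, 152 and 111 in WT (difference 0.12, adjusted p = 0.47). The third distal region by level, at -8.88 kb, was weak, with 14, 13, 14 and 18 tags in KO, 16 and 19 in WT replicates 1_3 and 3, and no peak in the other WT libraries. The window of Cebpe held 1 call among 7 tested regions (beside the same 12.8%). This was the promoter of another gene, Acin1, which codes for a protein of splicing and apoptotic chromatin condensation. It lay at +25.37 kb from the start of Cebpe (chr14:54686033-54687159), with 255, 243, 240 and 212 tags in KO and 215, 224, 231 and 171 in WT (log2 difference 0.40, SE 0.09, adjusted p = 0.00109). With background scaling this call was lost (adjusted p = 0.248). The regions of the Cebpe window at -41.97, -42.6 and -44.43 kb, all in Slc7a8, had differences of 0.02, 0.07 and -0.02, and adjusted p-values of 0.949, 0.723 and 0.959. At -42.6 kb there were 112, 118, 103 and 109 tags in KO and 130, 145, 111 and 106 in WT.

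No C/EBP region was open in 4 libraries of WT and 0 of KO (beside 0.723% of all regions) or the reverse (beside 0.251%), which holds for 0.974% of all regions in either direction. In 3 regions (beside 1.26% of all regions), 3 WT libraries and 0 KO libraries had a peak, and in 0 (beside 0.415%) it was the opposite. At -20.83 kb of Cebpb these were WT replicates 1_2, 1_3 and 3, with 12, 15 and 18 tags. At +27.13 kb of Cebpa and at -24.91 kb of Cebpd they were WT replicates 1_3, 3 and 4, with 23, 18 and 12 tags and with 44, 22 and 19 tags. The absence of a peak means that the threshold was not reached, not that tags were at 0, and the weakest peaks of the KO lists held 6 to 9 tags. In 2 more regions 4 WT libraries and 1 KO library had a peak (beside 1.07% of all regions), and in 0 the reverse (beside 0.388%). At +5.48 kb of Cebpb (chr2:167694216-167694770) WT had 39, 42, 55 and 58 tags and KO replicate 3 had 27. The local background there was 13.6 to 16.9 tags in WT and 9.20 in KO replicate 3, and is not known for libraries without a peak. Its part in the missing peaks was not tested. At -2.69 kb of Cebpe WT had 18, 21, 17 and 11 tags and KO replicate 1_3 had 15. Close to the promoters of Cebpb and Cebpd, peaks at -2.22 kb (53 and 69 tags in WT replicates 1_2 and 1_3) and at -0.54 kb (62 tags in WT replicate 1_3) met local backgrounds of 24.1 to 30.3 tags.

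**Figure D5:**
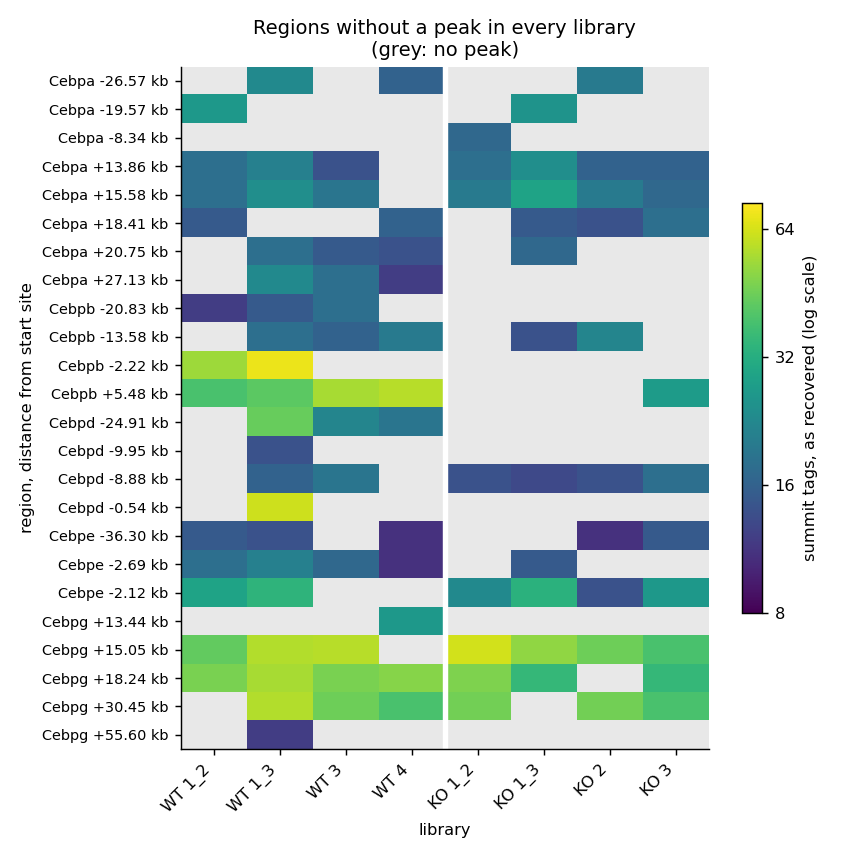
Summit tags (colour, log scale) in the 24 C/EBP regions that lacked a peak in at least 1 library, with regions as rows, named by gene and distance from the start site, and libraries as columns, WT on the left and KO on the right. Grey marks no peak; no row is filled on one side and empty on the other.

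C/EBP motif matches were about as common in these regions as elsewhere. TTGCNNAA was present within 100 bp of the summit in 14 of the 84 regions (16.7%) and in 14.5% of all 82424. AP-1 was present in 15 (17.9%, against 11.7% of all), PU.1 in 13 (15.5%, against 23.0%), RUNX in 4 (4.76%, against 8.87%) and DR1 in 1 (1.19%, against 4.14%). Of the 15 AP-1 matches, 7 were in the Cebpb window. None of the 7 called regions held a C/EBP match (0 of 4 lower and 0 of 3 higher).

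Genes whose proteins dimerise with C/EBP factors, share their sites or control their stability were taken as a list of 14: Ddit3, Atf3, Atf4, Batf, Batf2, Batf3, Dbp, Hlf, Tef, Nfil3, Trib1, Trib2, Cop1 and Cebpz. Of these, 13 had a promoter peak in all 8 libraries, 1 passed the test as higher in KO and 0 as lower, and the median difference was 0.05. Over all regions 5.81% passed as higher and 7.03% as lower, and the median was 0.04. The gene that passed was Cebpz, a CCAAT-box factor that carries the name but is not a leucine zipper protein, with 222, 219, 199 and 210 tags in KO and 193, 258, 227 and 161 in WT (log2 difference 0.25, SE 0.09, adjusted p = 0.0404). At Trib2, a scaffold that sends C/EBPα to degradation, 3 WT libraries (16, 16 and 18 tags) and 0 KO libraries had a promoter peak. That pattern was seen in 1.26% of all regions. Trib1, which does the same, differed by -0.02 (adjusted p = 0.9), and Cop1, the ubiquitin ligase recruited by both, by 0.05 (adjusted p = 0.767).

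Of 18 known myeloid target genes of C/EBP factors, 8 had a promoter peak in all 8 libraries, 2 in some and 8 in none. By limma, 0 of the 8 tested passed with adjusted p under 0.05 (12.8% of all regions did). An unadjusted p under 0.05 was found for 3. The share of all regions with such a p was not counted. It is at least the 12.8% that passed after adjustment, so this count is not to be set against 5%. The median difference was 0.17 (0.04 over all regions). Those with no promoter peak in any library were the granule genes Mpo, Elane, Prtn3, Ctsg, Ltf and Ngp, the alarmin gene S100a9 and the chitinase-like gene Chil3. Chil3 is also an AM marker. Of 12 AM marker genes 9 had a promoter peak in all 8 libraries, and Chil3 and Krt79 in none. Of the 9 tested, 7 had a difference below 0 (42.4% of all regions did), and the median was -0.21 (0.04 over all regions). An unadjusted p under 0.05 was found for 4, again beside at least 12.8% of all regions. Those that passed were Fabp4, a lipid-binding protein gene, which was lower in KO (log2 difference -0.70, adjusted p = 0.000224), and Itgax, which was higher (0.55, adjusted p = 3.8e-05). The promoter of Itgax also drives the Cre transgene that KO mice alone carry, and its part in this value was not tested. The T cell markers Cd3e, Cd3g, Cd3d and Lck had no promoter peak in any library. Of 7 neutrophil markers, Ly6g, S100a9, Mpo and Elane had none and 3 had one in every library, with summed tags of 190 to 256 in KO and 227 to 335 in WT. Of 5 epithelial markers 3 had a promoter peak in every library, with 112 to 155 summed tags in KO and 122 to 194 in WT, and of 4 monocyte markers 2 did, with 94 to 108 over the list in KO and 41 to 129 in WT. A marker without a peak adds nothing to such a sum. The WT value of 41 was that of replicate 4, which had no Fcgr4 peak, while WT replicates 1_2, 1_3 and 3 had 46, 69 and 61 tags there. The part of other cells in these results was not tested.

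The promoters whose median-centred tags moved most like those of the C/EBP genes across the 8 libraries were, by Pearson's r over 11656 coding promoters, Fam45a (0.99), Ciart (0.98) and Get4 (0.98) for Cebpa and Apeh (0.98), Tbc1d22b (0.96) and Tmem217 (0.96) for Cebpb. For Cebpd they were Prdx3 (0.97), Actn4 (0.96) and Rita1 (0.96), for Cebpg Zbtb7c (0.97), Tmem87b (0.94) and Sin3b (0.92), and for Cebpe Fgd1 (0.95), Gm572 (0.93) and Gucy1a2 (0.92). These values rest on 8 libraries that share their depth and scaling, and the promoters themselves varied little (SD over libraries from 0.10 on the log2 scale at Cebpa to 0.24 at Cebpe).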

How the data were processed

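ATAC-seq was done on AMs from 4 KO and 4 WT libraries, grouped by sample title. Per the study's methods and the labels, the authors used Cutadapt for trimming and Bowtie2 for alignment to mm10, discarded duplicates and called peaks in each library with MACS3, extending cut sites to 200 bp (q-value of 0.05). The deposited lists give, for each peak, a score (not used), a fold, that is the ratio of summit pileup to local background with 1 added to each, and the −log10 p-value and −log10 q-value. Because absence of a peak only means that the threshold was missed, whole summit tags were worked back from fold and p, which returned the p-value of 100% of peaks within a relative error of 1e-05.

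Regions were built on GENCODE M21, basic set. For the 47499 regions found in every library, log2(tags + 0.5) was compared after subtracting the library median, with limma 3.58.1 (trended variance, Benjamini-Hochberg adjusted p under 0.05). Tags are extended read ends over 1 position, so counting limits precision: median summits held 40 to 53 tags. Libraries of a genotype could differ by more than counting noise, as given below. No read counts were at hand, so the authors' edgeR test was not fitted. On counts simulated for these 47499 regions the fit recovered 92 of 100 regions changed 2-fold and 56 of 100 changed 1.5-fold. Only those regions were changed and the same scatter served all regions, whereas 12.8% of all regions passed in the data. The recovered counts are thus not the sensitivity of the test as run.

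Tags of KO replicates 1_2 and 1_3 differed by no more than counting noise region by region (chi-square 0.98 per region, against 1.01 to 1.28 for other KO pairs and 1.12 to 1.99 for WT pairs). In the 3% of regions with most tags it was 0.96 for this pair and 1.04 to 1.33 for other KO pairs. For WT pairs it was 1.17 to 3.23 there. The ratio between KO replicates 1_2 and 1_3 changed with tag level, from 1.00 in the lowest of 20 bins to 1.07 in the highest (chi-square 1678 on 19 degrees of freedom), and they shared 189 identical peaks, within the 78 to 209 of the other pairs. The chi-square of this trend was 49.6 to 737 for the other KO pairs and 27.1 to 8670 for WT pairs. It was largest for WT replicates 1_3 and 4, with a ratio of 1.51 in the lowest bin and 1.30 in the highest. Centring on 1 median per library does not remove such a trend. Replicates 1_2 and 1_3 were kept as separate samples, and 2 alternatives average them (KO and WT replicates, or KO alone).

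The promoter region of a gene had its summit within 1 kb of a transcript start. Described singly were the promoters, the regions with an adjusted p under 0.05, those with peaks in all or 3 libraries of 1 genotype and none of the other, the 3 distal regions of highest mean tags of each gene, and the 3 most similar promoters. Those at +5.48, +42.43, -2.22, -2.69 and -0.54 kb and the stretch 3′ of Cebpb were added after their values were seen. The values of Trib1, Trib2 and Cop1 were likewise given outside the planned choice. Members, lists, tests and the scaling were chosen with earlier results of these data known. Sequence is that of GRCm38.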

Additional observations from a re-analysis of the deposited data

Results flagged for a closer look

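In the WT group, replicate 1_2 stood apart from the other 3 libraries at the Cebpe element at -44.43 kb. It had 54.2 median-centred tags (56 as recovered), while the others lay between 65.9 and 66.6, and the gap was 0.948 of the range of the group, above the limit of 0.829 for 4 samples. This was 1 of the 46 groups of 4 examined, and chance alone flags about 1 in 20.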

How the results depend on the processing

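The count of called C/EBP regions, 7 as reported, was 2 with scaling by genome-wide background (1 higher and 1 lower in KO) and 4 with replicates 1_2 and 1_3 as 1 sample (2 lower). It stayed at 5 to 8 under the other settings, and leaving out 1 library gave 4 to 7. Calls over all regions, 6096 as reported, were 2563 with background scaling and 4929 with 1_2 and 1_3 as 1 sample. With 1 library left out they ran from 4561 to 6451. No promoter passed the test under any alternative. The promoter difference of Cebpb changed sign with centring on promoter regions (-0.0092) and ran from -0.042 to 0.18 when 1 library was left out, and with 1 library left out those of the other promoters ran from 0.07 to 0.15 (Cebpa), 0.07 to 0.15 (Cebpd), -0.34 to -0.16 (Cebpe) and 0.01 to 0.11 (Cebpg), and that of the Cebpa element at +37.34 kb from 0.04 to 0.14. The promoter difference of Cebpg changed sign with quantile normalisation (-0.0074) and promoter centring (-0.030). Over all alternatives the lowest promoter differences of Cebpa and Cebpd were 0.018 and 0.035, and the lowest at the Cebpa element at +37.34 kb was 0.010. One-sided regions, 0 as reported, were 1 with only peaks of −log10 q of at least 5, 2 with 1_2 and 1_3 as 1 sample, and 0 to 2 with 1 library left out. The deviations of libraries with equal replicate names correlated weakly (r = 0.06 for 1_2, 0.12 for 1_3 and 0.04 for 3), but above the other 13 pairs of libraries (-0.07 to 0.03), and 6 of 6 libraries with a namesake correlated best with it. This is a hint from the data, and since not every r was over 0.1 the names were not taken to pair the samples. A replicate block gave 5 calls, 2 of them lower in KO, beside 6883 calls over all regions.

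Regions that were not called changed sign as follows. The Cebpb region at -39.48 kb was at -0.034 with background scaling, -0.056 with quantile normalisation, -0.00040 with 1_2 and 1_3 as 1 sample and -0.069 with promoter centring. The Cebpe region at -41.97 kb was at -0.036, -0.0082 and -0.071 with background scaling, 1_2 and 1_3 as 1 sample and promoter centring, and that at -42.6 kb at -0.021 with promoter centring. The Cebpg region at +29.32 kb was at -0.021, -0.030 and -0.056 with background scaling, quantile normalisation and promoter centring. With 1 library left out, ranges that crossed 0 were -0.094 to 0.052 at -32.18 kb and -0.014 to 0.057 at -39.48 kb of Cebpb, -0.062 to 0.11 at -41.97 kb and -0.10 to 0.067 at -44.43 kb of Cebpe, and -0.19 to 0.023 at +18.99 kb and -0.0030 to 0.062 at +29.32 kb of Cebpg. The cause was not tested. Counting KO replicates 1_2 and 1_3 alone as 1 sample, and centring on promoters, were added after the data had been seen. Depth limits weak regions most, since the smallest summit in a list held 6 to 9 tags, by library.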
